A study of Mus musculus with 11 samples.

Results

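The heat shock and DNAJ chaperone genes were taken as the protein-coding mouse genes whose symbols belong to the Dnaja, Dnajb, Dnajc, Hspa, Hspb, Hsph and Hsp90 series, together with Hspd1, Hspe1, Hsf1 and Hsf2. Of 48709 genes in the count files, 75 protein-coding genes carried such a symbol, and the 65 with at least 10 raw counts in at least 5 libraries were kept. Hspb3 (6 to 20 counts per library, 10 or more in 9 libraries) and Hspb1 (7 to 32 counts, 10 libraries) were closest inside this limit. Dnajb13 (4 to 38 counts) and Hsf2bp (5 to 18 counts) were closest outside it, with 10 or more counts in 3 libraries each. The rule itself uses no comparison between genotypes, and all 65 genes entered the test. They were measured in messenger RNA from the CA1 field of the hippocampus, with 6 CamkdeltaC transgenic libraries and 5 libraries of littermate controls, all from 3-month-old mice of both sexes. CamkdeltaC is a splice form of calcium/calmodulin-dependent kinase II delta, and the line of this name is a heart failure model whose transgene is driven by a promoter of heart muscle, so the CA1 cells are not the cells the transgene is made for. The labels do not name the promoter, give no sex, litter or batch for a library and do not say that each library came from a separate animal. Were some taken from 1 animal, the p-values would speak only for the spread among these samples, possibly a technical one.

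Chaperones keep other proteins folded. HSP70 proteins bind exposed stretches of unfolded clients in a cycle driven by ATP, J proteins (the DNAJ families) bring the clients and switch on the ATPase, and HSP110 proteins help release ADP. HSP90 completes the folding of kinases and receptors, small heat shock proteins hold unfolded clients without ATP, and Hspd1 with Hspe1 forms the folding chamber of the mitochondrial matrix. Heat shock factor 1 (Hsf1) switches on the inducible members when unfolded protein builds up in the cytosol, and a separate unfolded protein response does so for the members of the endoplasmic reticulum (ER). In neurons the constitutive HSP70 and its J proteins also strip clathrin from vesicles and guard synaptic vesicle proteins.

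Total counts per library ranged from 14263784 in control 5 to 36898689 in control 3. Camk2d, the gene of the transgene, was read at a level, scaled to the library's total count (CPM), of 72.0 ± 18.6 in controls (SD, n = 5) and 67.8 ± 36.7 with the transgene (SD, n = 6), and did not pass the test (log2 fold change -0.08, edgeR adjusted p 0.873). Camk2d was at 92.2 and 132 CPM in transgenic 4 and 6 and at 94.3 and 89.8 CPM in control 2 and 5. In the other libraries it lay between 40.4 and 61.6 CPM. All 8 markers of CA1 pyramidal cells were present, with a summed level of 5638 to 7907 CPM in transgenic and 5860.3 to 6829 CPM in control libraries, and none passed the test. Of 6 microglial markers 2 were higher (Csf1r and Trem2, sums of 229 to 302 against 207 to 255 CPM), of 5 endothelial markers 1 was lower (114 to 153 against 124 to 172 CPM), and no defining marker of these 3 lists was at 0. Among all genes tested, 7.41% were higher and 10.5% lower. The part of the other cell types in the results below was not tested. In this bulk RNA, fewer cells of a type and less RNA per cell cannot be told apart. The libraries also differed in how their counts leaned on GC content. The slope of log2 CPM against the GC content of the transcript was -0.061 to 0.274 per 10 percentage points in transgenic libraries and -0.22 to -0.062 in controls, so every transgenic library lay above every control, with transgenic 6 and control 2 nearly equal. Xist, transcribed from the inactive X chromosome of females, was at 591 CPM or more in transgenic 1, 2 and 3 and in control 1, 3 and 4, and at 1.49 CPM or less in the other 5 libraries. In a split by Xist chosen after seeing the data, Camk2d had -0.46 (edgeR adjusted p 0.00369) among libraries of high Xist. Among those of low Xist it had 0.02 (adjusted p 0.994).

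Transcription of the inducible chaperones is known to pass through short elements before the gene start, and the stretches that carry them are shown here for the members with a complete match, so that the counts by pathway can be read beside them. Windows of 250 bases before to 50 bases after the RefSeq transcript start (build GRCm38.p6) were available for 53 of the 65 members. The ER stress element, the binding site of ATF6 with NF-Y, was searched on both strands as CCAAT and CCACG with any 9 bases between them. It was found in 0.119% of 32851 windows of all genes. Of the 53 members, 3 (5.66%) had it in at least 1 window, Hspa5, Hsp90b1 and Dnajc3. The first share counts windows and the second counts genes, so the size of the contrast cannot be read from them. A heat shock element of 3 units was searched on both strands as GAA, TTC and GAA with any 2 bases between neighbours. It was found in 0.603% of all windows, and 4 members (7.55%, again a share of genes) had it, Hspd1, Hspe1, Dnajb6 and Hsph1. Partial matches were not searched, and 12 members, Hsp90aa1 and Hspa8 among them, had no window. A member not listed here may therefore still carry an element. For a member with several windows, the one with the most matches was taken. The 250 bases before the start are given for the ER stress element and 200 for the heat shock element, 5′ to 3′ on the strand of the gene, with matches on either strand in capitals. The windows are chr2:34771840-34772089 (plus strand), chr10:86705445-86705694 (minus strand), chr14:118937682-118937931 (plus strand), chr1:55087948-55088147 (plus strand) and chr5:29735698-29735897 (plus strand).
Hspa5: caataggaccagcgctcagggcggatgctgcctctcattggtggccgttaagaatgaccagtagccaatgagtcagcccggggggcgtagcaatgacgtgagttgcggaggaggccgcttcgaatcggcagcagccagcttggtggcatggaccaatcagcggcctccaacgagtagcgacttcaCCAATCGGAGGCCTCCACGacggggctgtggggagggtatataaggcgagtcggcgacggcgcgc
Hsp90b1: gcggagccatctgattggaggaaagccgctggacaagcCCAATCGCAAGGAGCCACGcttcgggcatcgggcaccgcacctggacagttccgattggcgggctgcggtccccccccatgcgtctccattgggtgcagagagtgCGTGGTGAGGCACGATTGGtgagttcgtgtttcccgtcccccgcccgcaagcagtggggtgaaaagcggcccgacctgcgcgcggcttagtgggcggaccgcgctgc
Dnajc3: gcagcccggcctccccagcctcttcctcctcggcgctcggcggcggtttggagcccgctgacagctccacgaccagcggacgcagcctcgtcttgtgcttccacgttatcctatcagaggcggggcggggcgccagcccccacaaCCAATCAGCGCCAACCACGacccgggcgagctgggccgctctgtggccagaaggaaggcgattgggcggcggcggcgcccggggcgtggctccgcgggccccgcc
Hspe1: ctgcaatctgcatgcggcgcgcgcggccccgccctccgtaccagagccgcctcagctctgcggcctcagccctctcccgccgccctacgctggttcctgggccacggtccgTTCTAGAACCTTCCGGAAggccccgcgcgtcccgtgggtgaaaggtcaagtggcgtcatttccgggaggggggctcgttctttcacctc
Dnajb6: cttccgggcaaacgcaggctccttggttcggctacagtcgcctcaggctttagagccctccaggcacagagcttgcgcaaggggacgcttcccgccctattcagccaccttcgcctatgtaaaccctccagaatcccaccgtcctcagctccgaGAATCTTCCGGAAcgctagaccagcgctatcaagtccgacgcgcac
The Hsp90b1 window held 2 matches, 1 on each strand, and the Hspa5 match lay 65 to 47 bases before the start. Hspd1 and Hspe1 are transcribed away from each other with 215 bases between their starts, so the matches shown before Hspe1, which overlap each other, also lie before Hspd1. The Hsph1 match lay 36 to 48 bases after the start and is not shown. A match describes letters only, and no binding was measured.

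In control CA1 the chaperone genes spanned a wide range of levels, which are compared here as CPM per kilobase of exon. Hsp90ab1, the constitutive cytosolic HSP90, was highest at 534 CPM per kilobase and took 21.9% to 26.1% of the members' counts in every library, the range over both genotypes. The ER HSP90 Hsp90b1 was next at 74.6, ahead of the J protein Dnaja2 at 65.6, the ER HSP70 Hspa5 at 62.6, the synaptic vesicle J protein Dnajc5 at 60.5 and the clathrin uncoating J protein Dnajc6 at 58.4 CPM per kilobase. The stress-inducible members spread over most of this range, from 52.2 for Hsph1 and 42.9 for Hsp90aa1 down to 2.01 for Hspa1b, 0.731 for Hspa1a and 0.715 for Hspb1. Together the 65 genes took 0.672% to 0.697% of the counts in transgenic libraries and 0.680% to 0.731% in controls, and these ranges overlapped. Reads of some members are uncertain because other genes carry the same sequence. Over 20% of the 50-base windows of the exons were shared with another gene for 13 members, among them Hspa1l (71.4%), Hspa1a (66.3%), Hspa1b (62.3%), Hsp90aa1 (58.5%) and Hspa8 (52.7%). The spans of 33 members, introns included, overlap another annotated gene on either strand. Where exons on opposite strands overlap, an unstranded library cannot separate the reads, but overlap of exons was not examined.

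**Figure D1:**
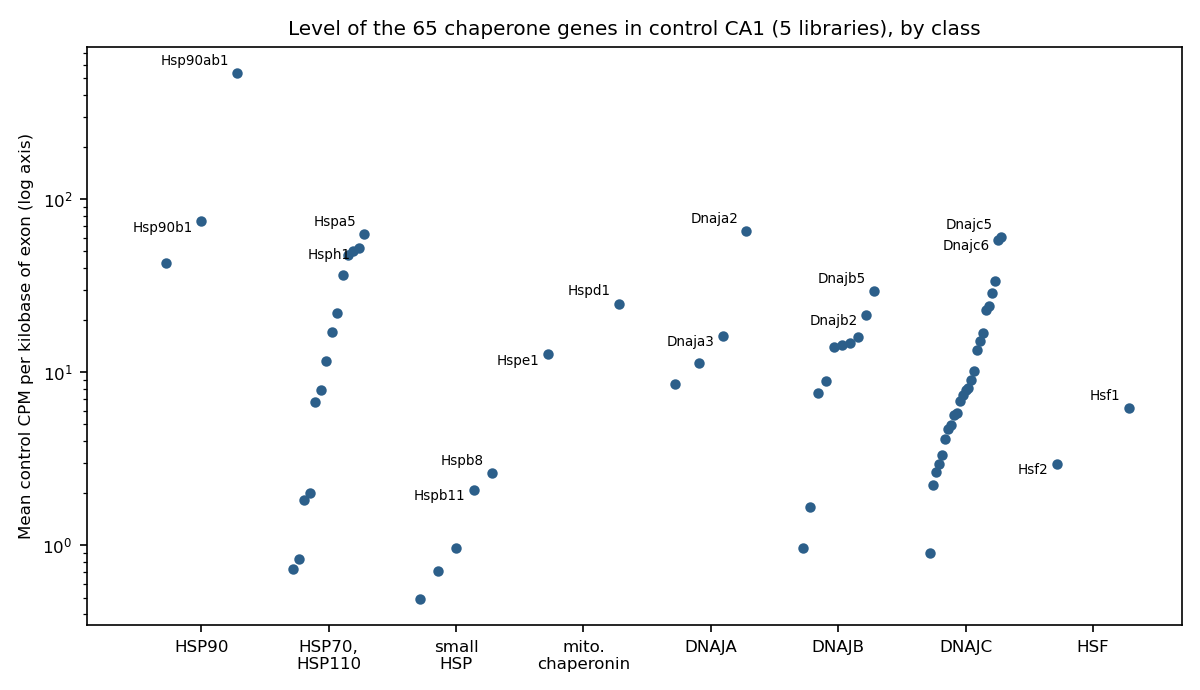
Mean level in the 5 control libraries, in CPM per kilobase of exon on a log axis, for each of the 65 chaperone genes (points) by class. Hsp90ab1 stands highest at 534, Hsp90b1 follows at 74.6, and Hspa1a and the small heat shock protein Hspb1 lie below 1.

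Transgenic CA1 held lower levels of 10 chaperone genes and higher levels of 2, at an adjusted p under 0.05 by edgeR's quasi-likelihood test over 17293 genes. The lower genes were Dnajb9, Hspa13, Hspa4l, Dnajb14, Dnaja1, Hsf2, Hspa5, Dnajc3, Dnajb4 and Hsp90b1, with log2 fold changes of -0.50 to -0.23, and the higher genes were Dnajc30 and Dnajc4, with 0.27 and 0.25. Among all genes tested, 10.5% were lower and 7.41% higher, against 15.4% and 3.08% of the members. The median log2 fold change of the members was -0.031, against 0.009 over all genes, and 36 members lay below 0 and 29 above. By class, the lower genes were 1 of 4 DNAJA, 3 of 10 DNAJB, 1 of 25 DNAJC, 3 of 14 HSP70 and HSP110, 1 of 3 HSP90 and 1 of 2 heat shock factors, and both higher genes were DNAJC. None of the 5 small heat shock proteins and neither of the chaperonin genes passed the test, and 0 of these 7 had an unadjusted p under 0.05. All 12 genes stood in the authors' deposited tables with the same direction, and those tables, made from the same libraries, held 16 members lower and 3 higher. The members found only in the authors' tables were Dnajc1, Dnajc6, Dnajc10, Hsp90aa1, Hspa4 and Hsph1, lower, and Dnajb1, higher.

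These counts varied with single libraries and with the GC content of the transcripts. The 10 lower genes had a median GC content of 41.6% (36.2% to 45.6%) and the higher genes had 54.5% and 57.4%, against a median of 47.3% over the members and 49.6% over all genes. With the GC trend of each library removed, 0 members passed the edgeR test in either direction (lowest adjusted p 0.0501, for Dnajc8), against 1.16% of all genes higher and 0.821% lower, and 17 members (26.2%) had an unadjusted p under 0.05, 8 lower and 9 higher, against 18.2% of all genes. GC slope went with genotype, every transgenic library lying above every control. A genotype difference that follows GC content would therefore be removed with the trend, and the design cannot tell them apart. Leaving out transgenic 1, 2, 3 and 4 gave 5, 3, 4 and 4 lower members, and leaving out control 1, 3, 4 and 5 gave 6, 3, 3 and 4. Leaving out transgenic 5, transgenic 6 and control 2 gave 10, 15 and 14. Over these fits the number of all genes called also moved, from 1155 without control 4 to 4712 without transgenic 6, against 3094 with all libraries. The count of higher members was 1 without transgenic 1 or 4 and 0 without transgenic 2 or 3 or control 1, 3, 4 or 5. It was 2 without transgenic 5 and 3 without transgenic 6 or control 2. Dnajb14, Hspa13 and Hspa4l passed in all 11 fits that left out 1 library, Hsf2 in 8, and the other 8 genes in 2 to 4.

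**Figure D2:**
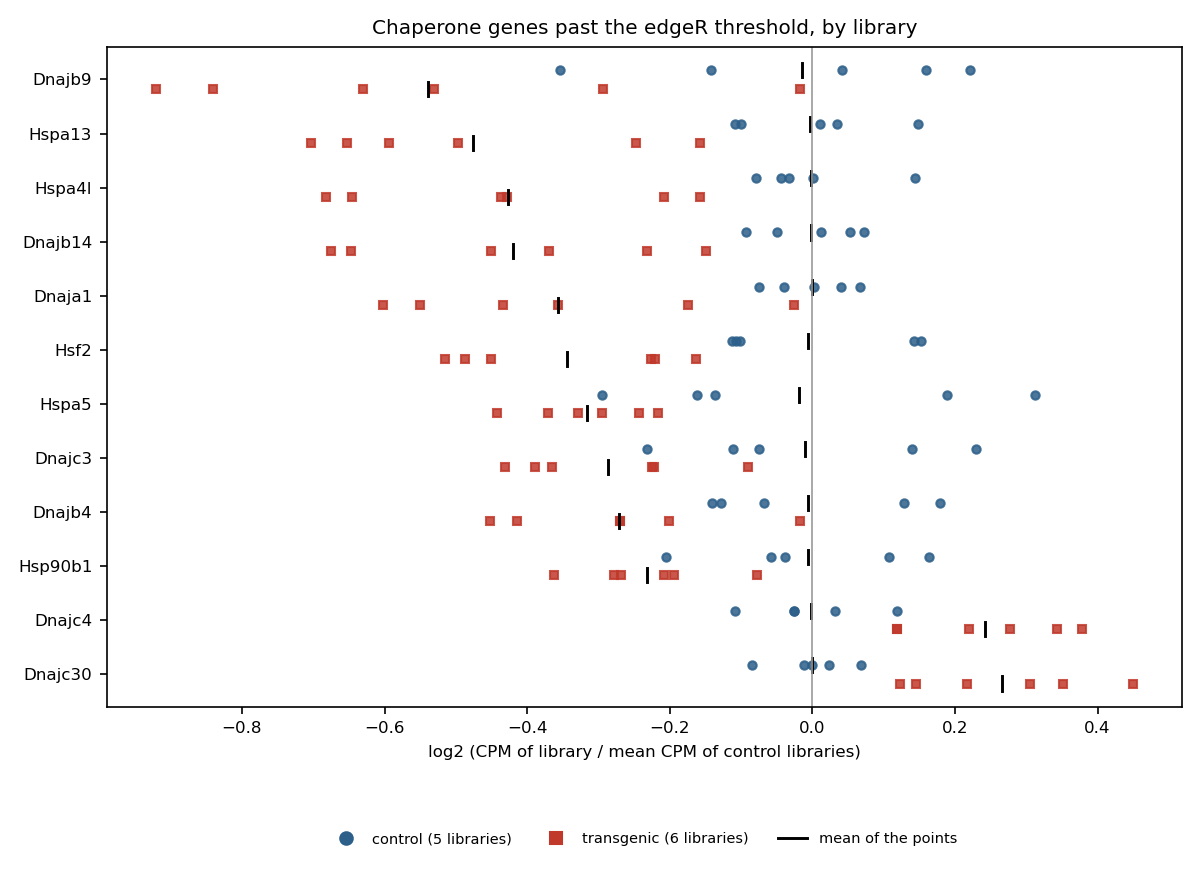
Level of each of the 12 chaperone genes past the edgeR threshold in each library, as log2 of its CPM over the mean CPM of the controls (circles, 5 control libraries; squares, 6 transgenic libraries; black ticks, means of the points). The groups are separate for Hspa13, Hspa4l, Dnajb14, Hsf2, Dnajc4 and Dnajc30 and overlap for the other 6.

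Of 10 ER chaperones 5 fell, none rose and all 10 had log2 fold changes below 0 (median -0.23, range -0.50 to -0.02), beside 10.5% of all genes lower. Of the 5 that fell, 4 had a GC content below 45%, a range in which 33.7% of all genes were lower. With the GC trend removed the median was -0.11 and 0 of the 10 passed, with 4 lower at an unadjusted p under 0.05. In that fit 0.821% of all genes were called lower, and 18.2% had an unadjusted p under 0.05, both directions together. The list was set by hand with earlier results of these data known. Among ER cochaperones and folding factors outside it, Sil1 rose by 0.30 (edgeR adjusted p 0.0246) and Sec63 fell by 0.21 (adjusted p 0.0240). Hyou1 and Serpinh1 did not pass (-0.07 and 0.10). With the GC trend removed Sil1 and Sec63 had 0.16 and -0.04, without a call. Hspa5 (BiP), the ER HSP70 that also holds the stress sensors inactive, was at 195 to 228 CPM with a median of 213 in transgenic libraries and at 241, 216, 302, 329 and 237 CPM in control 1 to 5. Control 3 and 4 stood well above the other controls, and 3 of 6 transgenic libraries lay below the lowest control. It fell by 0.32 (SE 0.10, adjusted p 0.0404), and without the GC trend the change was -0.21 (adjusted p 0.255). Hsp90b1 (GRP94), the ER HSP90 that folds integrins and Toll-like receptors, was at 234 to 285 CPM (median 255) in transgenic libraries and at 289, 261, 337, 324 and 293 CPM in controls. The groups overlapped through control 2, and 4 transgenic libraries lay below it. Hsp90b1 fell by 0.23 (SE 0.07, adjusted p 0.0394), and the change was 0.01 (adjusted p 0.924) with the GC trend removed.

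Hspa13 (Stch), an HSP70 relative of the microsomes that lacks the client-binding domain, showed a clear separation of the genotypes. It was at 33.1 to 48.3 CPM (median 37.0) in transgenic libraries and at 50.3, 50.0, 55.2, 59.7 and 54.3 CPM in controls. All 6 transgenic libraries lay below every control. Hspa13 fell by 0.46 (SE 0.10, adjusted p 0.013), with -0.12 (adjusted p 0.177) after the GC trend was removed. Dnajb9 (ERdj4), a BiP cochaperone of ER-associated degradation, had the lowest fold change of the 65 genes. It was at 19.3 to 36.1 CPM (median 24.4) in transgenic libraries and at 28.6, 33.1, 42.6, 40.8 and 37.6 CPM in controls. Transgenic 5 and 6 reached into the control range and the other 4 lay below it. Dnajb9 fell by 0.50 (SE 0.15, adjusted p 0.0392), with -0.20 (adjusted p 0.276) after removal of the GC trend. Dnajc3 (p58IPK), which restrains the kinase PERK and serves BiP as a J protein, was at 51.6 to 65.3 CPM (median 56.7) in transgenic libraries and at 66.0, 59.2, 76.6, 81.5 and 64.4 CPM in controls. The groups overlapped, with control 3 and 4 highest again. Dnajc3 fell by 0.28 (SE 0.09, adjusted p 0.0393), with -0.09 (adjusted p 0.501) after removal of the GC trend.

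The other 5 ER members did not pass the test. Dnajc10, a disulfide reductase of the ER, had a log2 fold change of -0.22 (adjusted p 0.0662). Dnajc1, Dnajb11, Dnajc25 and Dnajc16 had -0.18, -0.08, -0.07 and -0.02. Dnajb14, a J protein anchored in the ER membrane with its J domain in the cytosol and counted outside the ER list, was at 88.2 to 127 CPM (median 106) in transgenic libraries and at 136, 132, 142, 146 and 148 CPM in controls. All transgenic libraries lay below all controls. Dnajb14 fell by 0.40 (SE 0.09, adjusted p 0.0144), and the change of -0.19 with the GC trend removed had an adjusted p of 0.0629. Its close relative Dnajb12 had a log2 fold change of 0.05 (adjusted p 0.593).

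Among the cytosolic HSP70 and HSP110 genes, Hspa4l alone passed the test. Hspa4l (Apg-1), an HSP110 family exchange factor, was at 162 to 233 CPM (median 193) in transgenic libraries and at 260, 246, 252, 254 and 287 CPM in controls. The genotypes did not overlap. Hspa4l fell by 0.41 (SE 0.09, adjusted p 0.0147), with -0.05 (adjusted p 0.605) after removal of the GC trend. Its relative Hsph1 (HSP105) was at 288 to 366 CPM (median 345) in transgenic libraries and at 404, 320.5, 379.7, 395 and 395 CPM in controls. Control 2 lay well below the other controls and inside the transgenic range, and the log2 fold change of -0.17 (SE 0.07, adjusted p 0.129) did not pass. Hspa4, the third HSP110 gene, had -0.16 (adjusted p 0.0509).

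The HSP70 proteins themselves showed no call outside the ER. Hspa8 (HSC70), the constitutive HSP70 that uncoats clathrin vesicles, was at 48.7 to 56.2 CPM (median 50.6) in transgenic libraries and at 49.6, 47.6, 48.9, 51.3 and 51.2 CPM in controls. The groups overlapped almost fully, with a log2 fold change of 0.05 (SE 0.05, adjusted p 0.487), a 52.7% share of sequence held in common with 15 other genes standing beside this value. Hspa1a, one of the inducible HSP70 pair, was at 1.45 to 2.77 CPM (median 1.93) in transgenic libraries and at 2, 2.04, 2.44, 2.19 and 2.17 CPM in controls. The transgenic libraries lay on both sides of the controls (log2 fold change -0.10, SE 0.16, adjusted p 0.689). Hspa1b, its near-identical copy, was at 3.96 to 5.99 CPM (median 4.33) in transgenic libraries and at 6.71, 4.40, 6, 5.42 and 5.61 CPM in controls. In 4 transgenic libraries it was below the lowest control, and the log2 fold change was -0.32 (SE 0.13, adjusted p 0.104). Because Hspa1b is rich in GC (58.1%), its change was further from 0 with the GC trend removed, at -0.50 (adjusted p 0.0605). The testis-enriched Hspa1l and Hspa2 had -0.29 and 0.06, and the distant relatives Hspa12a, Hspa12b and Hspa14 had -0.13, 0.09 and 0.01, all without a call.

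The cytosolic HSP90 genes were not called by the main edgeR test, though Hsp90aa1 was lower in the authors' table (-0.20, the authors' adjusted p 0.0408) and with DESeq2 (adjusted p 0.0384). Hsp90aa1, the stress-inducible form, was at 131 to 164 CPM (median 146) in transgenic libraries and at 164, 156, 176, 169 and 179 CPM in controls. In 4 transgenic libraries it was below the lowest control, but the log2 fold change of -0.20 (SE 0.07) had an adjusted p of 0.0538, and it was -0.04 with the GC trend removed. Hsp90ab1 was at 1496 to 1790.1 CPM (median 1686) in transgenic libraries and at 1627, 1541, 1624, 1617 and 1598 CPM in controls. Its groups overlapped (log2 fold change 0.06, SE 0.05, adjusted p 0.463, and within 0.01 of 0 with the GC trend removed).

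Of the class A J proteins, which match the bacterial DnaJ most closely, Dnaja1 fell. Dnaja1 (DJ-2 or HDJ2), the main cytosolic partner of HSC70 in this class, was at 64.2 to 95.7 CPM (median 74.1) in transgenic libraries and at 94.8, 92.5, 100.2, 97.6 and 102 CPM in controls. Only 1 of 6 transgenic libraries reached the control range. Dnaja1 fell by 0.34 (SE 0.09, adjusted p 0.0252), with -0.07 (adjusted p 0.453) after removal of the GC trend, and 28.8% of its sequence windows were shared with other annotated genes. Dnaja2, the second cytosolic class A gene and the more abundant per kilobase, was at 155 to 195 CPM (median 176) in transgenic libraries and at 190.4, 189, 206, 205 and 186 CPM in controls. It lay below the lowest control in 4 transgenic libraries, but its log2 fold change of -0.16 (SE 0.06, adjusted p 0.0944) did not pass and was 0.05 without the GC trend. Dnaja3, the mitochondrial member, was at 64.4 to 68.6 CPM (median 67.7) in transgenic libraries and at 64.2, 61.8, 68.7, 63.0 and 60.3 CPM in controls, with overlap and a log2 fold change of 0.08 (SE 0.04, adjusted p 0.223). Dnaja4 had 0.08 (adjusted p 0.504).

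In class B, Dnajb4 joined Dnajb9 and Dnajb14 among the lower genes. Dnajb4 (HLJ1), a cytosolic partner of HSP70, was at 48.9 to 66.1 CPM (median 55.5) in transgenic libraries and at 61.2, 60.7, 73.1, 75.7 and 63.8 CPM in controls. In 5 of 6 transgenic libraries it was below the lowest control. Dnajb4 fell by 0.26 (SE 0.08, adjusted p 0.0457), and the change was -0.02 (adjusted p 0.860) with the GC trend removed. Dnajb1 (HSP40), the classical heat-inducible J protein, stood on the other side of 0. It was at 49.5 to 58.5 CPM (median 53.2) in transgenic libraries and at 49.2, 45.4, 46.3, 52.6 and 43.8 CPM in controls, a log2 fold change of 0.18 (SE 0.06, adjusted p 0.0621) that did not pass. In 3 transgenic libraries it was above the highest control. Dnajb5, a J protein linked to the nuclear traffic of class II histone deacetylases, was at 160.2 to 264 CPM (median 211) in transgenic libraries and at 206, 154, 187, 156 and 172 CPM in controls. Transgenic 1, 2 and 3 were its highest libraries, and the log2 fold change was 0.24 (SE 0.13, adjusted p 0.192). Dnajb2, a neuronal J protein that passes clients to the proteasome, was at 92.3 to 114 CPM (median 103) in transgenic libraries and at 91.2, 108, 88.1, 79.5 and 89.0 CPM in controls, with overlap and a log2 fold change of 0.18 (SE 0.08, adjusted p 0.127). The aggregation suppressor Dnajb6 and the testis gene Dnajb3 had -0.03 and -0.18 without a call.

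Both higher genes were small class C J proteins. Dnajc30, a mitochondrial protein tied to complex I repair, was at 13.4 to 16.8 CPM (median 14.7) in transgenic libraries and at 12.5, 12.9, 12.3, 12.2 and 11.6 CPM in controls. All 6 transgenic libraries were above all controls. Dnajc30 rose by 0.27 (SE 0.07, adjusted p 0.0265), with 0.14 (adjusted p 0.193) after removal of the GC trend. It shares 24.3% of its sequence windows with its neighbour Bud23, so part of its reads may count for either gene. Dnajc4 was at 13.7 to 16.4 CPM (median 15.0) in transgenic libraries and at 11.7, 13.7, 12.4, 12.4 and 12.9 CPM in controls. The groups did not overlap, by less than the rounding of these values. Dnajc4 rose by 0.25 (SE 0.07, adjusted p 0.0334), with 0.08 (adjusted p 0.607) after removal of the GC trend. In all, 2 members were higher without overlap, against 3.04% of all genes, and 4 were lower without overlap (Dnajb14, Hsf2, Hspa13 and Hspa4l), against 4.73% of all genes.

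Neither of the J proteins best known from the synapse, Dnajc5 and Dnajc6, passed the test. Dnajc5 (CSP alpha), which chaperones SNARE proteins on synaptic vesicles, was at 393 to 428 CPM (median 409) in transgenic libraries and at 429.9, 436, 409, 421 and 408 CPM in controls. The groups overlapped (log2 fold change -0.04, SE 0.04, adjusted p 0.553). Dnajc6 (auxilin), the neuronal J protein that calls HSC70 to clathrin coats, was at 279 to 349 CPM (median 309) in transgenic libraries and at 319.8, 339, 363, 356 and 348 CPM in controls. In 5 transgenic libraries it was below the lowest control, and the log2 fold change of -0.17 (SE 0.06, adjusted p 0.0787) did not pass. Of the 7 members tied to synaptic vesicles and clathrin uncoating, 1 fell (Dnaja1, 14.3%) and none rose, with a median of -0.04. Among all genes 10.5% were lower and 7.41% higher. The endosomal Dnajc13 had -0.09 (adjusted p 0.427). Of the other class C genes the fold changes ran from -0.13 for Dnajc28 to 0.20 for Dnajc17, none with a call, and the splicing J protein Dnajc8 and the ribosome-bound Dnajc2 had 0.08 and -0.06.

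Of 8 mitochondrial members 1 rose (Dnajc30, 12.5%) and none fell, against 7.41% of all genes higher and 10.5% lower. The median was 0.05, or 0.10 with the GC trend removed. Hspd1 (HSP60) was at 56.7 to 66.2 CPM (median 62.5) in transgenic libraries and at 61.2, 59.3, 70.4, 70.2 and 68.3 CPM in controls. The groups overlapped, with a log2 fold change of -0.09 (SE 0.06, adjusted p 0.324). Hspe1 (HSP10), which caps the HSP60 chamber and shares the promoter shown above, was at 16.9 to 19.6 CPM (median 18.3) in transgenic libraries and at 20, 18.3, 18, 21 and 16.1 CPM in controls. All transgenic values lay within the control range (log2 fold change -0.03, SE 0.07, adjusted p 0.797). Hspa9 (mortalin), the HSP70 of the matrix, had 0.02 (adjusted p 0.741), and the import motor J proteins Dnajc15 and Dnajc19 had 0.09 and -0.08.

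Of the 2 heat shock factors 1 fell, beside 10.5% of all genes lower. Hsf1, the main activator of the heat shock response, was at 41.1 to 56.2 CPM (median 48.4) in transgenic libraries and at 44.5, 41.9, 42.8, 48.0 and 42.9 CPM in controls, with overlap and a log2 fold change of 0.15 (SE 0.08, adjusted p 0.192). Hsf2, a factor of development and proteasome stress that pairs with Hsf1, was at 19.9 to 25.4 CPM (median 22.5) in transgenic libraries and at 26.3, 26.5, 31.4, 31.6 and 26.4 CPM in controls. All 6 transgenic libraries lay below all controls. Hsf2 fell by 0.34 (SE 0.08, adjusted p 0.0207). Its transcript has the lowest GC content of the 65 genes (36.2%), and with the GC trend removed its sign turned, to 0.21 (adjusted p 0.227).

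No gene of the list induced by heat shock was called higher by the main edgeR test. Dnajb1 was higher in the authors' deposited table (log2 fold change 0.17, the authors' adjusted p 0.0153). It also passed with DESeq2 (adjusted p 0.0415), but not in edgeR with the GC trend removed (0.08, adjusted p 0.445). Of 13 stress-inducible members 3 fell (Hspa4l, Dnaja1 and Dnajb4, 23.1%), none rose and 10 did not pass. Among all genes 10.5% were lower and 7.41% higher. The 3 that fell had a GC content below 45%, a range in which 33.7% of all genes were lower. The list had a median log2 fold change of -0.10, or -0.04 with the GC trend removed. Besides those given above, the list holds Hspb1 and Hspb8. Hspb1 (HSP25) was at 0.549 to 1.23 CPM (median 0.753) in transgenic libraries and at 0.874, 0.668, 0.814, 0.838 and 0.491 CPM in controls, levels of 7 to 32 counts per library at which the SE of 0.22 around the log2 fold change of 0.08 (adjusted p 0.874) means that small differences were not detectable. Hspb8 (HSP22), which works with BAG3 in selective autophagy, was at 3.64 to 10.1 CPM (median 6.46) in transgenic libraries and at 3.90, 5.56, 6.11, 5.06 and 4.91 CPM in controls. Transgenic 6 was highest and transgenic 3 lowest of all libraries, so the log2 fold change of 0.38 (SE 0.21, adjusted p 0.223) lay within a wide spread. Hspb11, a ciliary transport protein grouped with this family by name, was at 3.84 to 5.62 CPM (median 4.58) in transgenic libraries and at 4.50, 4.13, 4.72, 5.22 and 3.08 CPM in controls, with overlap (0.09, SE 0.14, adjusted p 0.665). The muscle members Hspb3 and Hspb6 had 0.51 and 0.06 without a call.

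**Figure D3:**
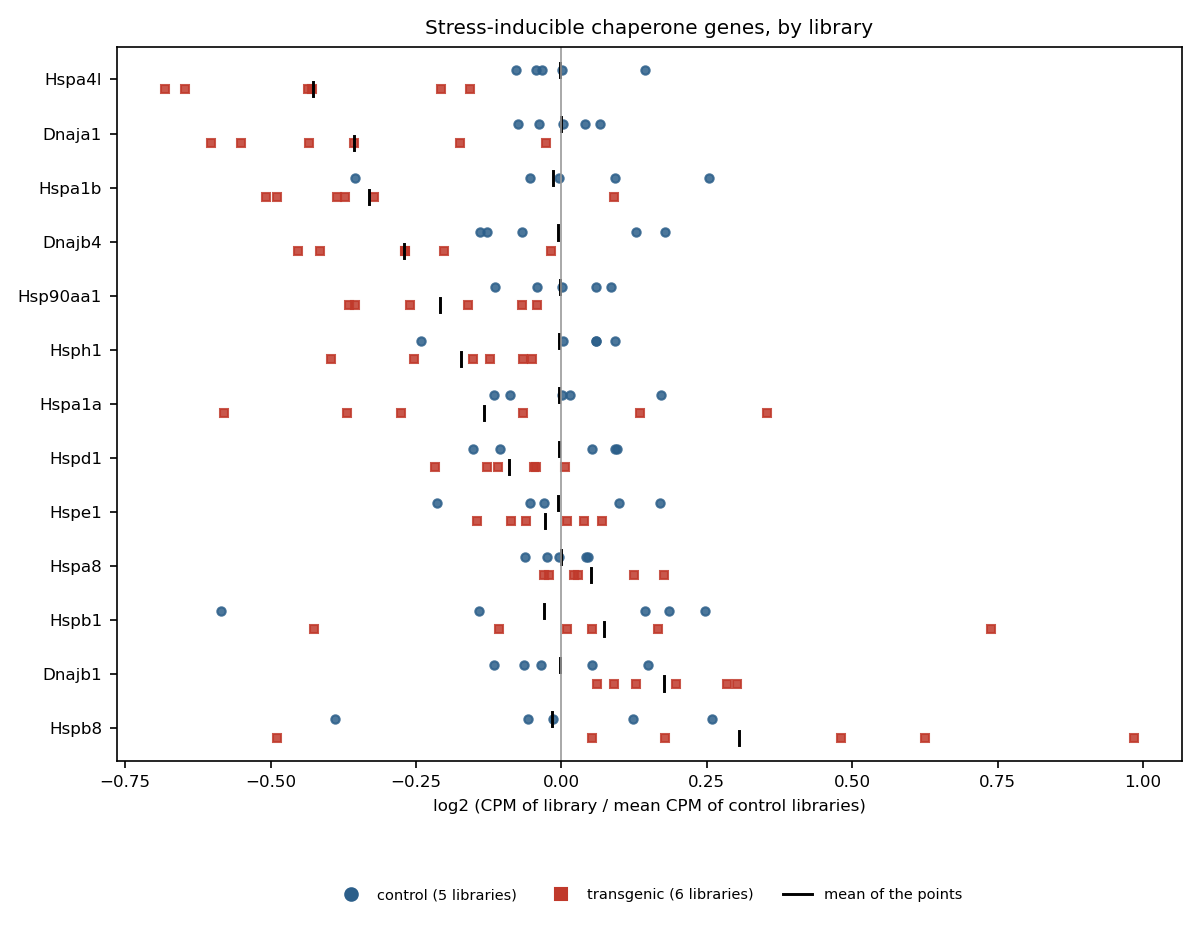
Level of the 13 stress-inducible members in each library, as log2 of CPM over the control mean (circles, 5 control libraries; squares, 6 transgenic libraries; black ticks, means of the points). Hspa4l, Dnaja1 and Dnajb4 passed the edgeR test as lower, while the classical inducible genes Hspa1a, Hspa1b, Hspb1 and Dnajb1 overlap between the genotypes and did not pass.

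**Figure D4:**
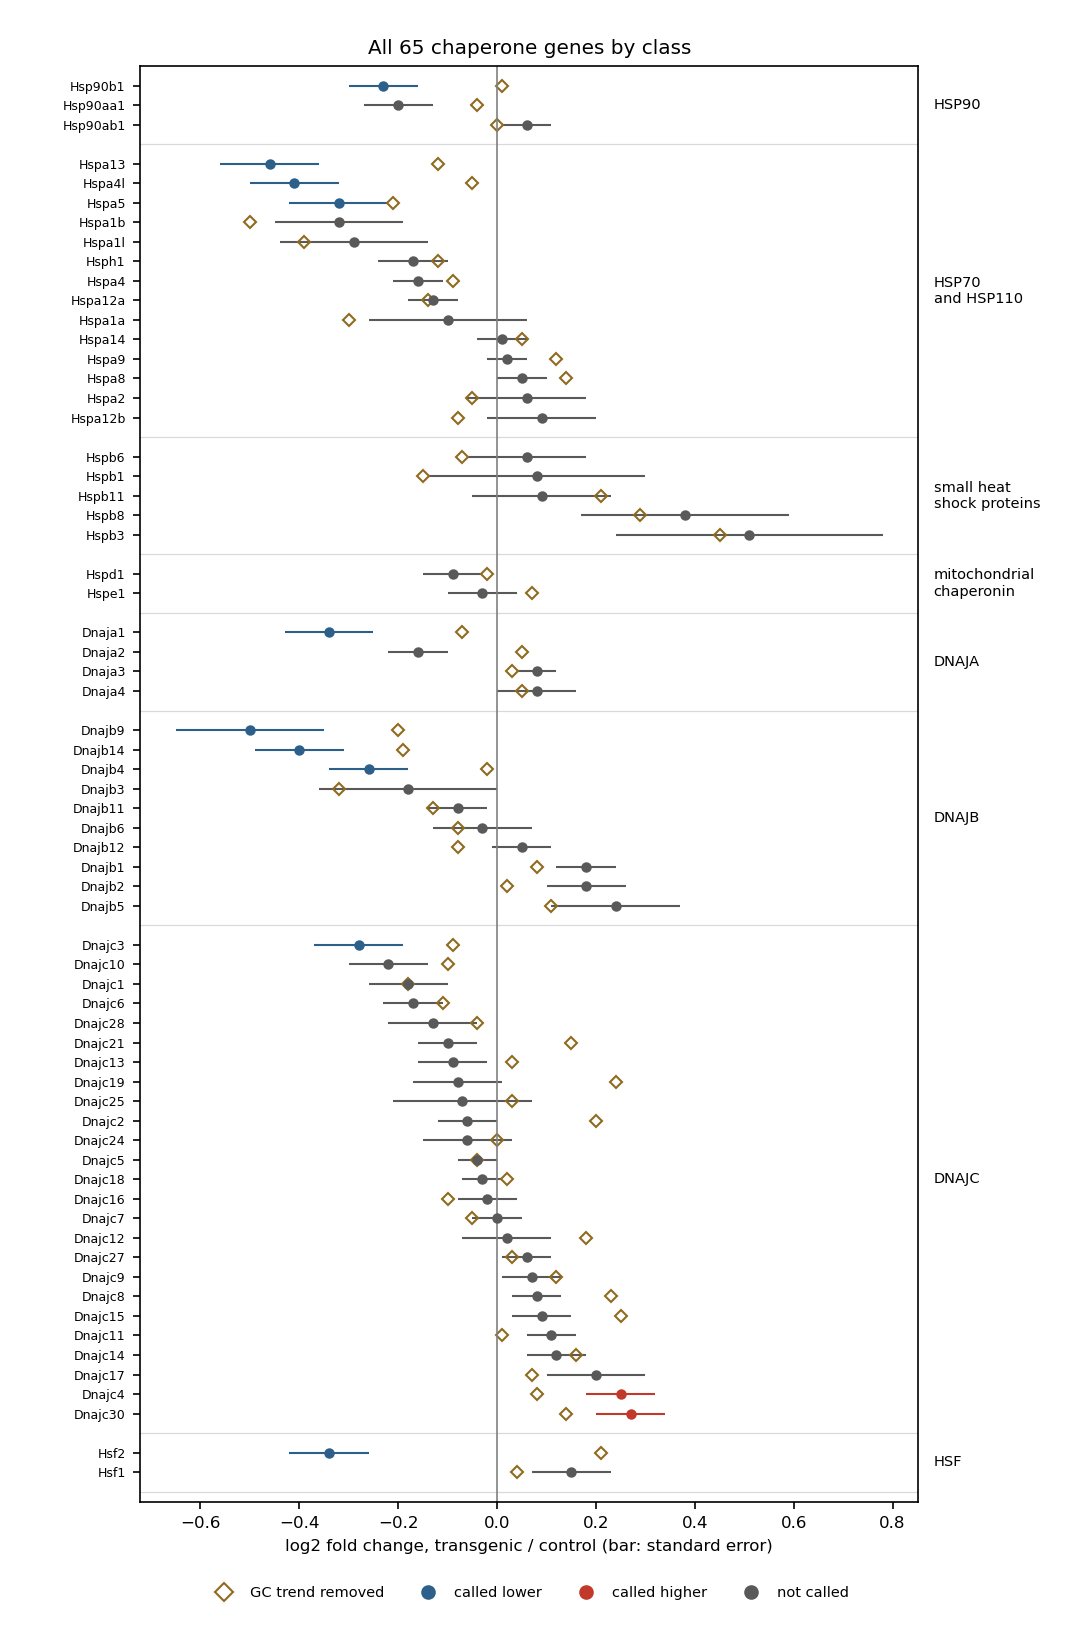
Log2 fold change, transgenic over control, of all 65 members by class (filled circles; bars, 1 SE; blue, called lower; red, called higher; grey, not called), with the value after removal of the GC trend (open diamonds). The diamonds of the called genes lie nearer to 0 than the circles, and those of Hsf2 (0.21) and Hsp90b1 (0.01) lie on the other side of 0.

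Across the 65 members the log2 fold change went with GC content (Pearson 0.564, Spearman 0.579), as it did across 17246 genes with a GC value (0.642 and 0.684). Genes share the libraries they are measured in and are not independent replicates, so these are descriptions. Below 45% GC, 9 of 18 members were lower (50.0%), against 33.7% of all genes in that range. From 45% to 50% GC, 1 of 22 was lower (4.55%), against 5.86% of all genes, and at 50% GC or above 0 of 25 were lower and 2 were higher (8%), against 14.4% of all genes higher. After the GC trend was removed the members' relation was -0.279 (Pearson) and -0.192 (Spearman), against 0.018 and 0.014 across all genes. With that removal 18 members had changed sign.

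**Figure D5:**
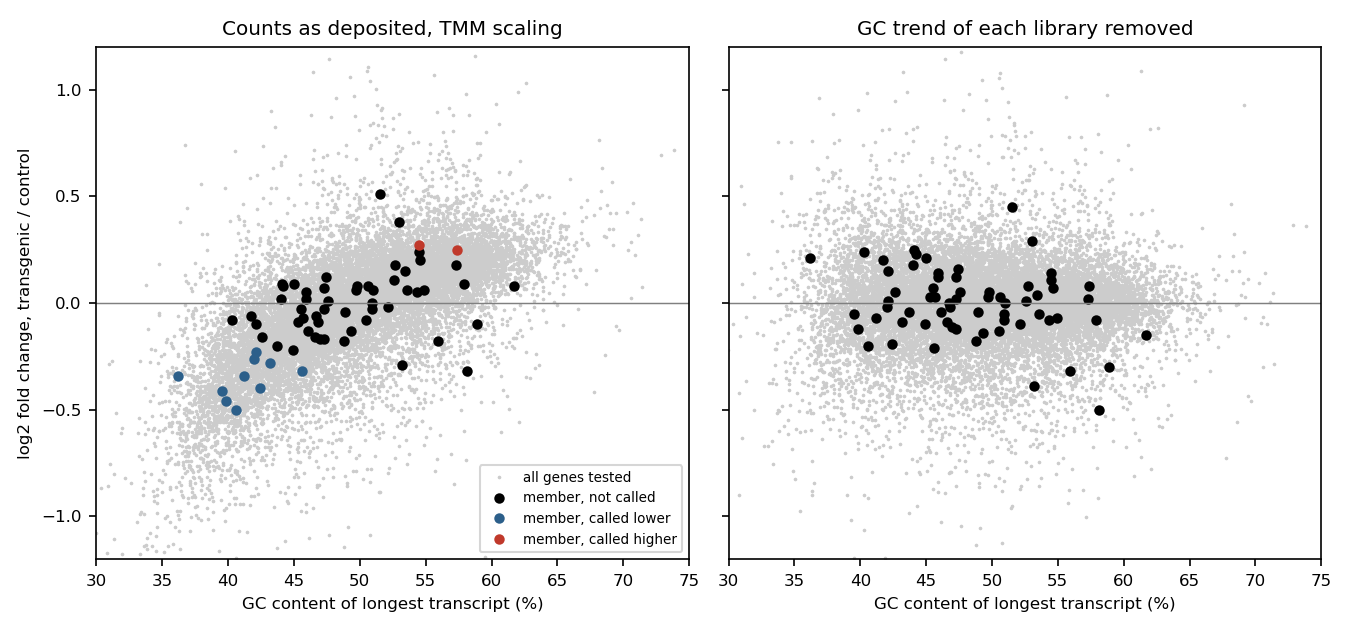
Log2 fold change, transgenic over control, against the GC content of the longest transcript in percent, for counts as deposited (left) and with the GC trend of each library removed (right); grey points are all genes tested and large points the 65 members. On the left the 10 members called lower lie between 36.2% and 45.6% GC, and on the right no member is called.

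The difference between genotypes was also computed within the libraries of high and of low Xist, a split chosen after seeing the data. Among the 6 libraries with high Xist, 15 members were lower and 5 higher, against 16.9% of all genes lower and 12.8% higher, and these included all 12 genes named above. Dnajb9 was at 19.3, 20.4 and 23.6 CPM in transgenic 1, 2 and 3 and at 28.6, 42.6 and 40.8 CPM in control 1, 3 and 4, a log2 fold change of -0.84 (adjusted p 0.00376). Among the 5 libraries with low Xist the same gene had -0.20 (adjusted p 0.790), with 25.3, 29.8 and 36.1 CPM in transgenic 4, 5 and 6 and 33.1 and 37.6 CPM in control 2 and 5. No member passed there (4 with an unadjusted p under 0.05), against 0% of all genes in either direction by edgeR (993 of 17672 with an unadjusted p under 0.05). The difference between both subsets, tested as an interaction of genotype with Xist in all 11 libraries, was not called for any gene (lowest adjusted p 0.212 over all genes and over the members), and 7 members (10.8%) had an unadjusted p under 0.05, against 16.4% of all genes. Transgenic 1, 2 and 3 were also the libraries with the highest GC slopes, 0.176 to 0.274, so that Xist level and GC slope cannot be told apart among the transgenic libraries.

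Genes that work with these chaperones changed in both directions. Of 60 listed cochaperones and folding factors 58 were tested, 11 rose (19.0%) and 8 fell (13.8%), against the shares of all genes given above, with a median log2 fold change of 0.07. Leaving out transgenic 1, 2 or 3 gave 5, 4 and 5 that rose, and leaving out control 1, 3, 4 or 5 gave 6, 5, 4 and 5. Without transgenic 4, 5 or 6 the number was 8, 12 and 15, and without control 2 it was 15. The number that fell was 5, 4 and 4 when transgenic 1, 2 or 3 was left out, and 4 when control 3, 4 or 5 was. It was 6, 10 and 11 without transgenic 4, 5 or 6, and 7 and 8 without control 1 or 2. Among HSP70 exchange factors and cochaperones 5 of 18 rose (27.8%) and 4 fell (22.2%). Hspbp1, a nucleotide exchange factor, rose by 0.32 (controls 64.7 ± 7.39 CPM, SD, n = 5, transgenic 80.8 ± 4.42 CPM, SD, n = 6, edgeR adjusted p 0.0144). The groups overlapped for Hspbp1, and its change was 0.13 (adjusted p 0.157) with the GC trend removed. Bag4, a BAG domain exchange factor, fell by 0.46 (59.2 ± 4.23 and 43.2 ± 5.11 CPM, adjusted p 0.0111). Bag4 was lower in all 6 transgenic libraries than in any control, and it still passed with the GC trend removed, at -0.30 (adjusted p 0.0314).

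Of 20 HSP90 cochaperones 4 rose (20%) and 4 fell (20%), against 7.41% and 10.5% of all genes. Cdc37, which delivers kinases to HSP90, rose by 0.27 (controls 115 ± 5.66 CPM, SD, n = 5, transgenic 138 ± 11.7 CPM, SD, n = 6, edgeR adjusted p 0.0161), and by 0.23 (adjusted p 0.0419) with the GC trend removed. Chordc1 fell by 0.56 (67.7 ± 9.49 and 45.9 ± 6.86 CPM, adjusted p 0.0123), but it has a GC content of 35.7% and its change was 0.01 with the GC trend removed. Ppid (cyclophilin 40) fell by 0.31 (adjusted p 0.0156), with -0.05 after the GC trend was removed. In the cytosolic chaperonin TRiC and prefoldin, 2 of 14 rose (14.3%) and none fell. The prefoldin subunits Pfdn5 and Pfdn6 rose by 0.29 and 0.30 (adjusted p 0.0126 for both) and were higher in all transgenic libraries than in any control, with 0.16 and 0.15 after removal of the GC trend (adjusted p 0.0931 and 0.166). With the GC trend removed 3 of 58 partner genes were higher (Cdc37, the mitochondrial exchange factor Grpel1 and the TRiC subunit Tcp1). In that fit 2 were lower, Bag4 among them, against 1.16% of all genes higher and 0.821% lower. Tcp1 had a log2 fold change of 0.00 before and 0.30 (adjusted p 0.0390) after the removal.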

How the data were processed

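The authors deposited raw counts per gene for 11 libraries (polyadenylated RNA, unstranded TruSeq kit, single reads of 50 bases, per the labels). The build mm10 and the tools STAR 2.5.2b, Subread 1.5.1, featureCounts and FastQC 0.11.5 are listed per the submitters' processing notes, without roles or settings. The authors' deposited tables give, for genes called by the authors, a log2 fold change, an adjusted p-value and a signal per library (counts over a size factor). Their tool is not given here.

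Genes were named by GENCODE on the same build (48349 identifiers matched, 360 did not). edgeR 4.0.16 (R 4.3.3) compared 6 transgenic with 5 control libraries: filterByExpr left 17293 genes with 99.9% of the counts, TMM scaling, quasi-likelihood F test, no covariate, Benjamini-Hochberg adjustment over all genes, adjusted p under 0.05. Values in CPM were computed from the counts with these scaling factors. For the GC trend, a lowess curve (span 0.3) of each library's deviation of log2 CPM (prior count 2) on the GC content of the longest transcript was entered as an offset. The procedure was tested on simulated counts. Replicate numbers were not used as pairs: correlations of same-numbered libraries were 0.197, -0.027, -0.185, -0.051 and 0.023.

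The members, lists and alternatives were chosen with earlier results of these data known. Named with values per library were the called members, the 2 highest per class by CPM per kilobase, and the stress-inducible list; among partner genes, the 4 with the smallest p in each direction, of which 1 is not reported here. Promoter sequences are from RefSeq (GRCm38.p6). Marker lists covered 12 cell types; those not given above had at most 1 of their genes called. Alternatives were DESeq2 1.42.0 and its size factors, upper-quartile scaling, other count filters, limma 3.58.1 voom with sample weights, the replicate block, Xist as a covariate, GC and length trends, and leaving out each library. The subsets by Xist were added after seeing the data. The depth per library, 14263784 to 36898689 counts, limits precision most for the members below 3 CPM.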

Additional observations from a re-analysis of the deposited data

Results flagged for a closer look

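In 130 sets of values (65 members in each genotype), 3 held a library whose gap to its nearest neighbour took more of the group's range than a 95% limit allows (0.625 for 6 libraries, 0.710 for 5). Chance gives about 1 such set in 20. Dnajc28, a class C J protein, was lowest in transgenic 4 at 11.4 CPM. Hspa1b was highest in transgenic 1 at 5.99 CPM. Hsph1 was lowest in control 2 at 320.5 CPM. None of the 3 genes passed the test between genotypes.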

How the results depend on the processing

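The scaling methods, DESeq2, the filter of CPM above 1 and Xist as a covariate gave 2 or 3 higher and 10 to 13 lower members, and all 12 calls held there. Without a filter 0 members were higher and 4 of the 12 calls were lost. Limma voom called 4774 genes, against 3094. The replicate block gave 3 higher and 14 lower members; Hspa5 lost its call there (-0.30, adjusted p 0.0589), and no other call was lost. With the GC trend removed 0 members were higher, 0 lower, 3 partner genes higher, 2 lower and 342 genes called; with length as well the counts were 0, 0, 3, 1 and 294. In libraries with high Xist 5 members were higher and 5101 genes were called, and in those with low Xist 0 members, 0 partner genes and 0 genes were called. Leaving out 1 library gave 0 to 3 members higher, 3 to 15 lower, 4 to 15 partner genes higher, 4 to 11 lower and 1155 to 4712 genes called.

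Of the 65 members 18 changed sign with the GC trend removed. Among the members given by library, signs turned with the GC trend, and with GC and length trends, removed for Dnaja2 (0.05 and 0.03), Hsf2 (0.21 and 0.25), Hsp90ab1 (-0.00 and -0.02), Hsp90b1 (0.01 and 0.00), Hspb1 (-0.15 and -0.20) and Hspe1 (0.07 and 0.03), and for Dnajb4 (0.01) with both trends only. Hspb1 also turned without transgenic 1 (-0.08) and control 5 (-0.00), its highest value being 0.16 without transgenic 4, and Hspe1 without control 4 (0.01) and with low Xist (0.07). Hspa1a (0.11) and Hspb11 (-0.04) turned with high Xist. Beyond the offset itself, the cause of these changes was not tested. Control 5 had the fewest counts, and members below 3 CPM had standard errors of 0.12 to 0.27.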

Other observations

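Transgenic 5 had low counts for both sex-linked transcripts examined, with Xist at 0.731 CPM and the Y-linked Ddx3y at 0 CPM. The other libraries had either Xist at 591 CPM or more with Ddx3y at 0.355 CPM or less, or Ddx3y at 43.0 CPM or more with Xist at 1.49 CPM or less. In transgenic 5 the levels of the 10 chaperone genes called lower lay within the range of the other transgenic libraries, with Dnajb9 at 29.8 CPM and Hspa13 at 45.4 CPM.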
